A study of Rattus norvegicus with 8 samples.

Results

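The 46 genes described here encode the proteins that license origins, unwind and copy DNA, supply its nucleotides and pack the new strands during S phase, together with regulators of S-phase entry and the replication-linked protease Fam111a. They are a list of gene symbols grouped by role, with Fam111a alone in its role. The values are TPM (an abundance per transcript length, scaled to the same total in every sample), which the authors computed and deposited for 31699 rows. Of the 46 genes, 45 had values here and E2f1 was not analysed here. A mean of at least 1 TPM over the 8 samples was required for testing, and 43 of the 46 genes were among the 13103 genes tested, while Orc1 and Mcm10 lay below that limit.

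The cells were rat annulus fibrosus cells (AFCs) of the Sprague Dawley strain, from the fibrous outer ring of the intervertebral disc, used at the third passage from isolations that each pooled tissue of several rats. In the group labelled Lv-Ctrl, 4 samples were infected with the empty short hairpin vector pLVX-shRNA-Puro, and in the group labelled Lv-Piezo1, 4 samples were infected with pLVX-shRNA-Puro-Piezo1, which carries a hairpin against the mechanosensitive ion channel gene Piezo1. Both groups received virus at a multiplicity of infection of 20 for 24 h and then cyclic mechanical stretch of up to 20% at 0.5 Hz over 36 h. No unstretched culture was compared here, and the methods give an age for the rats of the animal model but not for those the cells came from. The study calls the 4 samples of a group biological repeats and counts the cells of 1 isolation as an independent repeat, but the labels do not tie a sample to an isolation. All p-values measure the spread between these samples.

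Before S phase, the origin recognition complex, Cdc6 and Cdt1 load the MCM2-7 helicase onto origins, and geminin later binds Cdt1 so that no origin is loaded again. Cdc45 and the GINS complex then turn the loaded ring into a moving helicase, polymerase α-primase lays primers, and polymerases δ and ε extend them with the sliding clamp PCNA. Many of these genes are transcribed at the G1/S transition, and their transcripts are often read as signs of cell division. Cells of the adult annulus fibrosus divide seldom in the disc but divide when they are passaged in culture.

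Piezo1, the gene the hairpin targets, measured 31.1, 33.0, 26.7 and 29.5 TPM in the samples labelled Lv-Ctrl (replicates 1 to 4), against 38.1, 37.7, 40.2 and 41.4 TPM in those labelled Lv-Piezo1. The target was thus higher in every sample whose label says it was knocked down, with a log2 fold change of 0.38 (standard error 0.06, limma adjusted p = 8.6e-04), or 0.22 after median-ratio scaling. For this reason the groups are named by their labels throughout. Higher or lower below always refers to the samples labelled Lv-Piezo1 relative to the other group. Piezo1 overlaps Ctu2 in RefSeq GRCr8.

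Markers of cell types were read in the same samples. Col1a1, a matrix gene of fibroblasts, had a mean of 3282 TPM in the samples labelled Lv-Ctrl against 5835 TPM in those labelled Lv-Piezo1. Tnmd, a tendon and ligament marker, was at 0 in 7 of 8 samples. On the fibroblast list that holds both, 11 genes were tested, and 6 were higher and 4 lower at an adjusted p below 0.05. Scx was among the higher (means of 30.1 and 56.8 TPM). The lower genes were Dcn, Pdgfra, Fmod (68.4 and 34.0 TPM) and Mkx (25.4 and 14.6 TPM). The notochordal markers Tbxt and Shh and the macrophage markers Adgre1, Cd163 and Tyrobp were listed at 0 in every sample. Of the other nucleus pulposus markers, Cd24 was called higher, with means of 3.79 and 21.9 TPM, and Krt8 had means of 2.56 and 3.17 TPM. On the chondrocyte-like list Comp was called higher, with means of 0.738 and 2.86 TPM, and Acan had means of 31.6 and 47.1 TPM. Sox9, the other tested gene of that list, did not move, with a log2 fold change of -0.008 (limma adjusted p = 0.94). Col2a1, Matn3 and Cnmd lay below 1 TPM. The endothelial list summed to at most 0.62 TPM in any sample. Cd68, a lysosomal gene on the macrophage list, had a mean of 0.955 TPM in the samples labelled Lv-Ctrl against 12.3 TPM in those labelled Lv-Piezo1. Both Comp and Cd68 averaged below 1 TPM under the label Lv-Ctrl and passed the limit for testing only through the samples labelled Lv-Piezo1.

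Most of the replication genes were higher in the samples labelled Lv-Piezo1, by less than 2-fold in most cases, while Fam111a fell from about 102 to 3.81 TPM. Calls were made with limma on log2(TPM + 1), on which the change of genes with low TPM is understated. At an adjusted p below 0.05 and a log2 fold change of at least 1, 6 of the 43 tested members (14.0%) were called higher, beside 4.91% of all tested genes, namely Cdt1, Mcm5, Chaf1b, Ccne1, Rrm2 and Gins1. Fam111a was the 1 member (2.33%) called lower, beside 2.76% of all tested genes. Without the limit on fold change, 34 members (79.1%) were higher at an adjusted p below 0.05, beside 41.9% of all tested genes, and 2 (4.65%), Fam111a and Gins4, were lower, beside 16.3%. In the same 34 members all 4 Lv-Piezo1 samples lay above all 4 Lv-Ctrl samples, a pattern that 39.8% of all tested genes shared, and in the same 2 members every sample lay below, as in 14.5% of all tested genes. For each single gene whose groups did not overlap, the exact two-sided permutation test gave p = 0.029, the smallest value that 4 samples against 4 allow. In RNA of whole cultures, a larger share of cells in S phase and more RNA of these genes per cell cannot be told apart.

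The background of these counts was itself shifted upward. The median log2 fold change of all 13103 tested genes was 0.14, and that of the 43 members was 0.53, so that the members lay 0.38 above it, with 39 of 43 above the median of all genes. Median-ratio scaling of the samples moved the median of all genes to -0.0046 and left the members 0.39 above it, and quantile normalization left them 0.37 above it. The share of all tested genes that were higher at an adjusted p below 0.05 was 27.9% with median-ratio scaling, beside 31 members, and 28.7% with quantile normalization, beside 30 members. On the deposited values 644 genes were called higher and 361 lower (64.1% higher), against 514 and 468 (52.3%) after median-ratio scaling and 463 and 485 (48.8%) after quantile normalization. Relative to the median of all genes, the called members ran from 0.86 for Gins1 to 1.43 for Cdt1, with Fam111a at -4.57. Pole, Cdc6 and Chaf1b averaged below 1 TPM under the label Lv-Ctrl and passed the limit for testing through the samples labelled Lv-Piezo1, so these counts and medians describe the members that passed and not the whole list.

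The shift of the members was seen in each sample. The median log2(TPM + 1) of the tested members was 3.02, 2.89, 2.86 and 2.86 in replicates 1 to 4 labelled Lv-Ctrl and 3.50, 3.53, 3.58 and 3.44 in replicates 1 to 4 labelled Lv-Piezo1. Lv-Ctrl replicate 1 was the highest of its group, and the groups did not overlap. The medians of all tested genes did not overlap either, at 3.692 to 3.803 under Lv-Ctrl and 3.907 to 3.983 under Lv-Piezo1. The lack of overlap was therefore not particular to the members, although the gap between the groups was wider for the members. Summed TPM is carried by a few abundant members, among them Fen1 and Fam111a. All members with values summed to 922, 927, 924 and 888 TPM in the samples labelled Lv-Ctrl against 944, 990, 960 and 911 TPM in those labelled Lv-Piezo1, with overlapping groups.

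**Figure D1:**
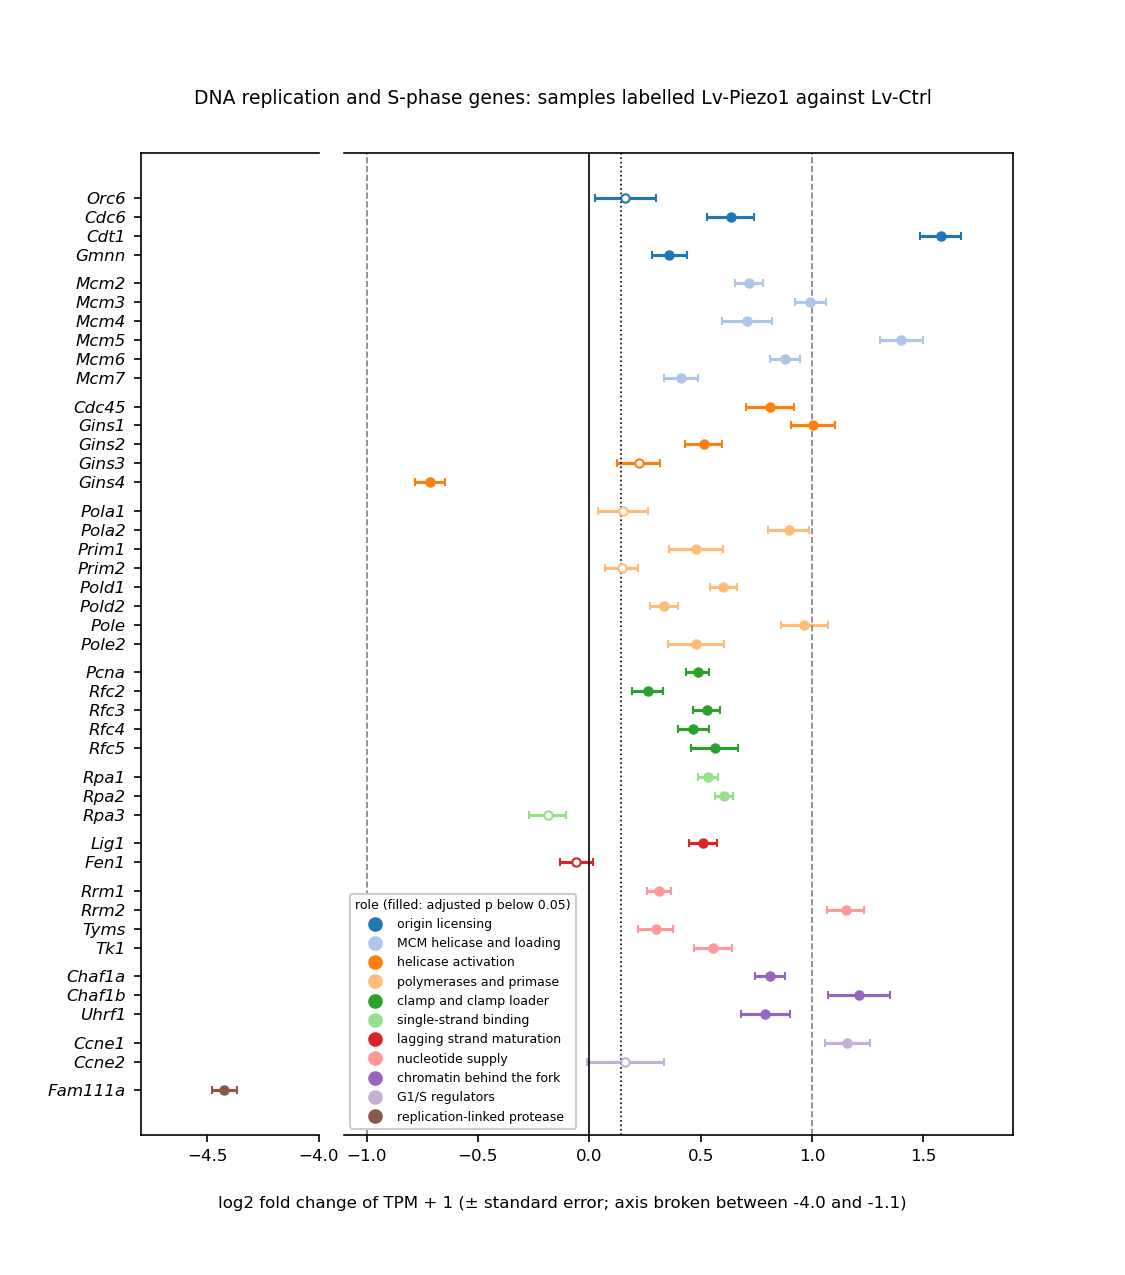
Log2 fold change of TPM + 1 (x axis, points, with standard error as bars, 4 samples against 4) of the 43 tested DNA replication and S-phase genes, grouped by role, with filled points for an adjusted p below 0.05. The dotted line marks the median of all tested genes at 0.14, the dashed lines mark a log2 fold change of 1 in either direction, and Fam111a at -4.42 lies beyond the break in the axis.

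Among the 5 origin licensing genes, 3 of the 4 tested were higher, and Cdt1 had the largest positive log2 fold change of TPM + 1 among the 43 tested members. Cdt1, the loading factor that brings MCM2-7 to origins, measured 2.10, 1.75, 1.62 and 2.24 TPM in the samples labelled Lv-Ctrl against 7.16, 8.32, 7.22 and 8.17 TPM in those labelled Lv-Piezo1. The lowest Lv-Piezo1 sample was more than 3 times the highest Lv-Ctrl sample, with a log2 fold change of 1.58 (standard error 0.09, limma adjusted p = 1.0e-06). Gmnn, which encodes the Cdt1 inhibitor geminin, was the most abundant gene of this role at 13.3, 13.5, 13.8 and 13.4 TPM against 15.6, 18.8, 20.4 and 16.1 TPM. All 4 Lv-Piezo1 samples were higher and more spread than the tightly grouped Lv-Ctrl samples, with a log2 fold change of 0.36 (standard error 0.08, limma adjusted p = 0.0040), and this adjusted p rose above 0.05 under both median-ratio scaling and quantile normalization. The mean of Cdt1 thus rose 4.00-fold and that of its inhibitor 1.31-fold.

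Cdc6, the ATPase that works with the origin recognition complex in loading, went from a mean of 0.763 to 1.74 TPM, with a log2 fold change of 0.64 (standard error 0.11, limma adjusted p = 7.4e-04). Orc6, a small subunit of the origin recognition complex, measured 6.33, 4.43, 6.95 and 4.52 TPM against 5.85, 5.54, 7.09 and 6.56 TPM. These groups overlapped, with Lv-Ctrl replicates 2 and 4 lying lower than the rest, and the log2 fold change of 0.16 (standard error 0.14, limma adjusted p = 0.34) turned slightly negative under quantile normalization. Orc1, the largest subunit of the complex, lay below the limit for testing at 0.12, 0.25, 0.06 and 0.09 TPM against 1.15, 0.63, 1.15 and 0.81 TPM, without overlap between the groups. Both levels are low, and a ratio between them would rest on values far below 1 TPM.

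All 6 subunits of the MCM2-7 helicase, the hexameric ring that unwinds DNA at the fork, were higher in the samples labelled Lv-Piezo1, without overlap between the groups, and kept an adjusted p below 0.05 under each of the scalings tried. Mcm5 changed most, from 2.72, 3.49, 2.61 and 2.51 TPM to 10.3, 8.67, 8.79 and 8.62 TPM. Every Lv-Piezo1 sample was more than double the highest Lv-Ctrl sample, replicate 1 stood above the other Lv-Piezo1 samples, and the log2 fold change was 1.40 (standard error 0.10, limma adjusted p = 2.7e-06). Mcm2, the most abundant subunit, measured 9.79, 12.1, 10.2 and 10.6 TPM against 18.4, 17.8, 18.4 and 18.1 TPM. Its Lv-Piezo1 samples were nearly equal, and its log2 fold change was 0.72 (standard error 0.06, limma adjusted p = 1.3e-05). Mcm7 changed least, from 10.8, 10.4, 9.88 and 8.48 TPM to 13.3, 14.2, 13.9 and 12.5 TPM, a log2 fold change of 0.41 (standard error 0.08, limma adjusted p = 0.0014). The lowest Lv-Piezo1 value of Mcm7, in replicate 4, was close to the highest Lv-Ctrl value, in replicate 1.

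The other subunits lay between these. Mcm3 went from 3.76 ± 0.193 to 8.47 ± 0.622 TPM, Mcm4 from 7.51 ± 1.34 to 12.8 ± 0.714 TPM and Mcm6 from 6.81 ± 0.470 to 13.4 ± 0.946 TPM (mean ± SD, n = 4 each). The log2 fold change of Mcm3, 0.99 (standard error 0.07, limma adjusted p = 2.9e-06), fell just short of the limit of 1 and passed it at 1.01 without Lv-Ctrl replicate 1 and at 1.04 without Lv-Piezo1 replicate 3. The subunits of the ring, which assemble in equal numbers, also came closer to each other in TPM. In the samples labelled Lv-Ctrl the most abundant subunit, Mcm2, had 3.77 times the mean TPM of the least abundant, Mcm5, and in those labelled Lv-Piezo1 Mcm2 had 2.14 times that of the least abundant, Mcm3. The highest over the lowest subunit within single samples, whichever these were, ran from 3.47 to 4.24 and from 2.07 to 2.41. Mcm10, which joins the helicase at activation and was not tested, measured 0.600, 0.550, 0.410 and 0.480 TPM against 1.46, 1.32, 1.40 and 1.73 TPM, again without overlap.

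**Figure D2:**
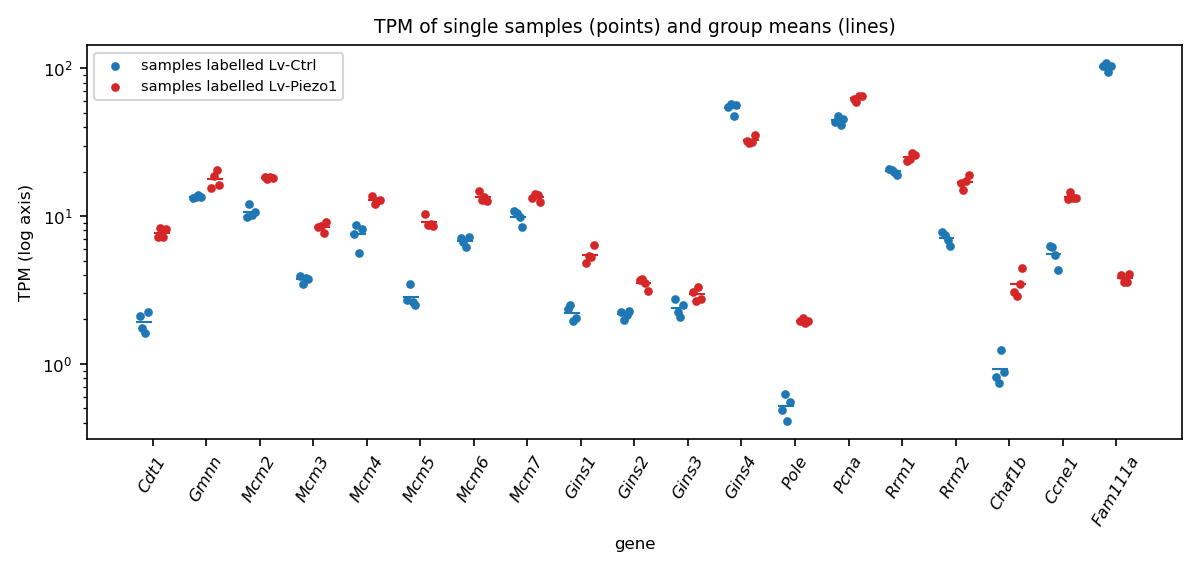
TPM (log axis) of 19 DNA replication and S-phase genes in single samples, with the 4 samples labelled Lv-Ctrl in blue, the 4 labelled Lv-Piezo1 in red and group means as short lines. The 6 MCM subunits are higher in every Lv-Piezo1 sample, whereas Gins4 (mean 54.0 against 32.5 TPM) and Fam111a (mean 102 against 3.81 TPM) are lower.

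The helicase activators split. Cdc45, Gins1 and Gins2 were higher at an adjusted p below 0.05, Gins3 was not past the threshold, and Gins4 was lower. Gins1 measured 2.35, 2.50, 1.95 and 2.03 TPM in the samples labelled Lv-Ctrl against 4.79, 5.34, 5.28 and 6.35 TPM in those labelled Lv-Piezo1. Each Lv-Piezo1 sample was nearly double the highest Lv-Ctrl sample or more, with a log2 fold change of 1.00 (standard error 0.10, limma adjusted p = 2.7e-05). Its call sat on the limit for fold change and was lost at 0.96 without Lv-Ctrl replicate 3, at 0.98 without Lv-Ctrl replicate 4, at 0.94 without Lv-Piezo1 replicate 4, at 0.88 after median-ratio scaling and at 0.79 after quantile normalization. Cdc45, the partner of GINS and MCM in the active helicase, went from 1.96 ± 0.279 to 4.20 ± 0.520 TPM (± SD, n = 4 in each group), a log2 fold change of 0.81. Gins2 went from 2.16 ± 0.136 to 3.52 ± 0.283 TPM (± SD, n = 4 in each group), a log2 fold change of 0.51. Gins3 had 2.39 ± 0.296 and 2.95 ± 0.285 TPM (SD, n = 4 each) with overlapping groups, and its adjusted p of 0.078 from limma fell below 0.05 without Lv-Ctrl replicate 1, where the log2 fold change was 0.27, and with moderation without a trend.

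Gins4 moved against the other GINS genes. It measured 54.7, 57.4, 47.7 and 56.2 TPM in the samples labelled Lv-Ctrl against 32.0, 31.0, 31.6 and 35.4 TPM in those labelled Lv-Piezo1. All Lv-Piezo1 samples were lower, at a log2 fold change of -0.71 (standard error 0.07, limma adjusted p = 1.7e-05), or -0.86 relative to the median of all genes. Although GINS holds its 4 subunits in equal numbers, the TPM of Gins4 was 25.0 times that of Gins2, the least abundant, in the samples labelled Lv-Ctrl, and 11.0 times that of Gins3 in those labelled Lv-Piezo1. Without Gins4 the highest and lowest of the other 3 subunits differed 1.11-fold and 1.84-fold. In the RefSeq gene order of assembly GRCr8, Gins4 lies between Golga7 and Gpat4. Golga7, a gene picked once its values had been seen, went from a mean of 9.81 to 38.6 TPM, a log2 fold change of 1.88, opposite to Gins4, and Gpat4 from 25.4 to 31.0 TPM. Whether the assembled transcripts at this place share reads was not tested.

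Among the 8 polymerase and primase genes, 6 were higher and none was called at the limit of 1. Pole, the catalytic subunit of the leading strand polymerase ε, changed most, from 0.490, 0.620, 0.410 and 0.550 TPM to 1.96, 2.05, 1.88 and 1.95 TPM. The groups were far apart for a gene of such low level, the mean rose 3.79-fold, and the log2 fold change of 0.97 (standard error 0.11, limma adjusted p = 5.5e-05) understates it, reaching the limit of 1 with a pseudocount of 0.1. Its partner Pole2 went from 1.11 ± 0.149 to 1.95 ± 0.401 TPM (SD, n = 4 each), with an adjusted p of 0.0097 from limma that rose above 0.05 under quantile normalization. Pold2, the accessory subunit of the polymerase δ that makes the lagging strand, was the most abundant gene of this role at 25.5, 22.7, 21.0 and 21.5 TPM against 27.9, 30.4, 27.7 and 29.2 TPM. The lowest Lv-Piezo1 sample lay just above Lv-Ctrl replicate 1, with a log2 fold change of 0.34 (standard error 0.06, limma adjusted p = 0.0016). Pold1, the catalytic subunit of polymerase δ, went from 5.46 ± 0.261 to 8.81 ± 0.453 TPM (SD, n = 4 each).

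Within polymerase α-primase, the enzyme that starts each strand, the subunits did not pass the test together. Pola2, the regulatory subunit, went from 5.10 ± 0.565 to 10.3 ± 1.18 TPM (± SD, n = 4 in each group), a log2 fold change of 0.89, and Prim1, the catalytic primase subunit, from 13.8 ± 2.68 to 19.4 ± 1.62 TPM, a log2 fold change of 0.48. Pola1, the catalytic polymerase subunit, had 1.13 ± 0.185 and 1.36 ± 0.125 TPM (SD, n = 4 each) with overlapping groups. Prim2 had the smallest change of this role, with 9.06, 10.2, 8.90 and 9.25 TPM against 11.5, 10.2, 11.0 and 9.23 TPM. Lv-Piezo1 replicate 4 lay among the Lv-Ctrl samples, and the log2 fold change of Prim2 was 0.15 (standard error 0.07, limma adjusted p = 0.12), or 0.20 and past the threshold without that sample. The highest and lowest of the 4 subunits, Prim1 and Pola1, differed 12.2-fold in the samples labelled Lv-Ctrl and 14.3-fold in those labelled Lv-Piezo1.

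The sliding clamp and the 4 small subunits of its loader were all higher, by 0.26 to 0.56 on the log2 scale. Pcna, the clamp that holds polymerases on DNA, measured 43.6, 47.5, 41.2 and 45.6 TPM in the samples labelled Lv-Ctrl against 62.2, 59.3, 64.9 and 64.5 TPM in those labelled Lv-Piezo1. The gap between the groups was wider than the range within either, with a log2 fold change of 0.49 (standard error 0.05, limma adjusted p = 4.2e-05). Rfc5 had the largest change of the role at 6.93, 5.36, 6.24 and 6.30 TPM against 8.25, 10.8, 8.70 and 11.0 TPM. Its Lv-Piezo1 samples fell into a lower pair, replicates 1 and 3, and a higher pair, replicates 2 and 4, all above Lv-Ctrl, and the log2 fold change was 0.56 (standard error 0.11, limma adjusted p = 0.0016). Rfc2 changed least, with 10.3, 9.41, 8.72 and 10.7 TPM against 11.7, 12.9, 11.4 and 11.7 TPM and a log2 fold change of 0.26 (standard error 0.07, limma adjusted p = 0.010). The groups of Rfc2 were close to touching, and its adjusted p rose above 0.05 under both median-ratio scaling and quantile normalization. Rfc3 went from a mean of 12.7 to 18.7 TPM and Rfc4 from 12.6 to 17.7 TPM, and the 4 small subunits kept a similar spread among themselves, 2.04-fold in the samples labelled Lv-Ctrl and 1.93-fold in those labelled Lv-Piezo1.

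Replication protein A, the trimer that covers single-stranded DNA, had 2 subunits higher and 1, Rpa3, not past the threshold. Rpa2 measured 17.2, 16.6, 17.6 and 17.8 TPM against 26.6, 27.4, 27.5 and 25.9 TPM. Both groups were narrow and well apart, with a log2 fold change of 0.61 (standard error 0.04, limma adjusted p = 2.3e-06). Rpa1, the large subunit, went from 26.9 ± 0.875 to 39.4 ± 1.91 TPM (± SD, n = 4 in each group), a log2 fold change of 0.53. Rpa3, the small and most abundant subunit, had 48.7, 50.3, 52.6 and 55.7 TPM against 44.9, 51.5, 47.7 and 38.4 TPM. Lv-Piezo1 replicate 2 lay within the Lv-Ctrl samples and the other 3 below them, at a log2 fold change of -0.19 (standard error 0.08, limma adjusted p = 0.087). Rpa3 passed the threshold as lower without that replicate, at -0.25, and after median-ratio scaling and quantile normalization, at -0.35 and -0.30. Without Lv-Piezo1 replicate 4 the log2 fold change of Rpa3 shrank to -0.11 and was not past the threshold. The ratio of the highest to the lowest subunit, Rpa3 to Rpa2, went from 3.00 to 1.70.

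In lagging strand maturation, Lig1, the ligase that seals Okazaki fragments, measured 9.63, 9.79, 10.5 and 10.1 TPM against 13.3, 14.5, 14.5 and 16.4 TPM. No Lv-Ctrl sample reached any Lv-Piezo1 sample, and the log2 fold change was 0.51 (standard error 0.06, limma adjusted p = 1.3e-04). Fen1, the nuclease that trims the flaps before ligation, was the most abundant member of the whole list at 380, 384, 417 and 352 TPM against 374, 408, 367 and 325 TPM. These groups overlapped, with a log2 fold change of -0.06 (standard error 0.07, limma adjusted p = 0.52). RefSeq GRCr8 places another gene, Tmem258, across Fen1. Tmem258 was not analysed here, so the level of Fen1 is uncertain.

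All 4 nucleotide supply genes were higher. Rrm2, the S-phase subunit of ribonucleotide reductase, which makes deoxynucleotides, measured 7.82, 7.48, 6.89 and 6.27 TPM in the samples labelled Lv-Ctrl against 16.8, 15.1, 17.4 and 18.9 TPM in those labelled Lv-Piezo1. The lowest Lv-Piezo1 sample was nearly double the highest Lv-Ctrl sample, with a log2 fold change of 1.15 (standard error 0.08, limma adjusted p = 3.9e-06). This was 1.00 after median-ratio scaling, on the limit, and 0.97 under quantile normalization, where the call was lost. Rrm1, the large subunit, measured 20.8, 20.6, 19.8 and 18.9 TPM against 23.6, 24.4, 26.5 and 26.1 TPM, also without overlap but with a log2 fold change of 0.31 (standard error 0.05, limma adjusted p = 7.4e-04). The ratio of Rrm1 to Rrm2 TPM was 2.82 ± 0.152 in the samples labelled Lv-Ctrl and 1.48 ± 0.112 in those labelled Lv-Piezo1 (± SD, n = 4 in each group, exact two-sided permutation test, p = 0.029). Single samples ran from 2.66 to 3.01 and from 1.38 to 1.62. The permutation p of this ratio is the smallest that 4 samples against 4 allow, and the ratios within the other complexes were not tested. Rrm2 overlaps Cys1 in RefSeq GRCr8, and Cys1, a gene picked once its values had been seen, went from a mean of 8.35 to 11.1 TPM.

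Tyms, which makes thymidylate, measured 3.66, 4.22, 3.42 and 4.07 TPM against 5.03, 4.93, 4.57 and 5.25 TPM. The groups did not overlap, the log2 fold change was 0.30 (standard error 0.08, limma adjusted p = 0.0095), and the adjusted p rose above 0.05 under both median-ratio scaling and quantile normalization. Tk1, the thymidine kinase of the salvage pathway, went from 6.34 ± 0.753 to 9.76 ± 0.603 TPM (± SD, n = 4 in each group), a log2 fold change of 0.56.

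The 3 genes that act on chromatin behind the fork were all higher. Chaf1b, the middle subunit of chromatin assembly factor 1, which deposits histones on new DNA, measured 0.820, 0.740, 1.24 and 0.880 TPM against 3.04, 2.86, 3.46 and 4.48 TPM. Each Lv-Piezo1 sample was more than double any Lv-Ctrl sample, the mean rose 3.76-fold, and the log2 fold change was 1.21 (standard error 0.14, limma adjusted p = 7.6e-05). The call was lost under quantile normalization, at 0.98. Chaf1a, the large subunit of the same factor, measured 3.24, 2.95, 2.95 and 2.87 TPM against 5.64, 6.07, 6.35 and 6.06 TPM. Its Lv-Ctrl samples were nearly equal and its log2 fold change was 0.81 (standard error 0.07, limma adjusted p = 8.6e-06). Uhrf1, which guides maintenance DNA methylation at hemimethylated sites, measured 3.24, 3.17, 2.30 and 2.75 TPM against 5.31, 4.86, 6.20 and 6.35 TPM, a log2 fold change of 0.79 (standard error 0.11, limma adjusted p = 2.6e-04). The lowest Lv-Piezo1 sample of Uhrf1 was again above every Lv-Ctrl sample.

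The cyclins E, which activate Cdk2 at the G1/S transition, differed from each other. Ccne1 measured 6.29, 6.17, 5.47 and 4.28 TPM in the samples labelled Lv-Ctrl against 13.1, 14.5, 13.3 and 13.3 TPM in those labelled Lv-Piezo1. All Lv-Piezo1 samples were more than double any Lv-Ctrl sample, with a log2 fold change of 1.16 (standard error 0.10, limma adjusted p = 1.3e-05). Its call was lost under quantile normalization, at 0.97. Ccne2 measured 3.26, 2.64, 2.09 and 3.53 TPM against 2.64, 2.53, 4.06 and 4.22 TPM. The groups of Ccne2 overlapped, with Lv-Piezo1 replicates 1 and 2 among the Lv-Ctrl samples, and the log2 fold change of 0.16 (standard error 0.17, limma adjusted p = 0.45) turned slightly negative under quantile normalization.

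Fam111a encodes a nuclear serine protease that binds PCNA, helps forks pass protein obstacles on DNA and restricts the replication of some DNA viruses. It measured 103, 108, 94.3 and 103 TPM in the samples labelled Lv-Ctrl against 4.00, 3.60, 3.55 and 4.07 TPM in those labelled Lv-Piezo1. The lowest Lv-Ctrl sample was more than 20 times the highest Lv-Piezo1 sample, and both groups were narrow. The mean TPM was 26.8 times higher in the samples labelled Lv-Ctrl, with a log2 fold change of -4.42 (standard error 0.06, limma adjusted p = 1.2e-10) that ran from -4.46 to -4.40 when single samples were left out. In the samples labelled Lv-Ctrl, only Fen1 had a higher mean among the members, whereas in those labelled Lv-Piezo1 Fam111a lay among the less abundant members, between Gins2 with 3.52 TPM and Cdc45 with 4.20 TPM. In RefSeq GRCr8 the next gene is Fam111al1, a gene of the same family, and how the authors divided reads between such copies is not given in the sources used here, so the level is uncertain to that extent.

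The genes that moved against or apart from the rest were among the most abundant. Fen1, Fam111a, Gins4 and Rpa3 had the highest means of all members in the samples labelled Lv-Ctrl, and none of them was higher in the samples labelled Lv-Piezo1. The other members that did not pass the threshold, Orc6, Gins3, Pola1, Prim2 and Ccne2, had log2 fold changes of 0.15 to 0.22, or 0.00 to 0.08 relative to the median of all genes. Of the 46 members, 14 overlap another gene in RefSeq GRCr8, and whether the counting used strand is not given in the sources used here.

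Other genes of replication and of the cell cycle were read in the same way from 8 lists of 135 genes, of which 123 were tested. Of these 123 genes, 82 were higher and 10 lower at an adjusted p below 0.05, beside 41.9% and 16.3% of all tested genes. Called higher were 5, a share no greater than the 4.91% of all tested genes. All 18 tested G2 and mitosis genes were higher, with a median log2 fold change of 0.74, and 3 were called, Ube2c (1.22), Aurkb (1.20) and Plk1 (1.14), followed by Cdc20 (0.98). In replication stress and fork repair, 16 of 18 were higher and none lower, among them Rmi1 (0.93), Rmi2 (0.84) and Tonsl (0.72), with a median of 0.44. Both lists act at or after the stage at which the members act.

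**Figure D3:**
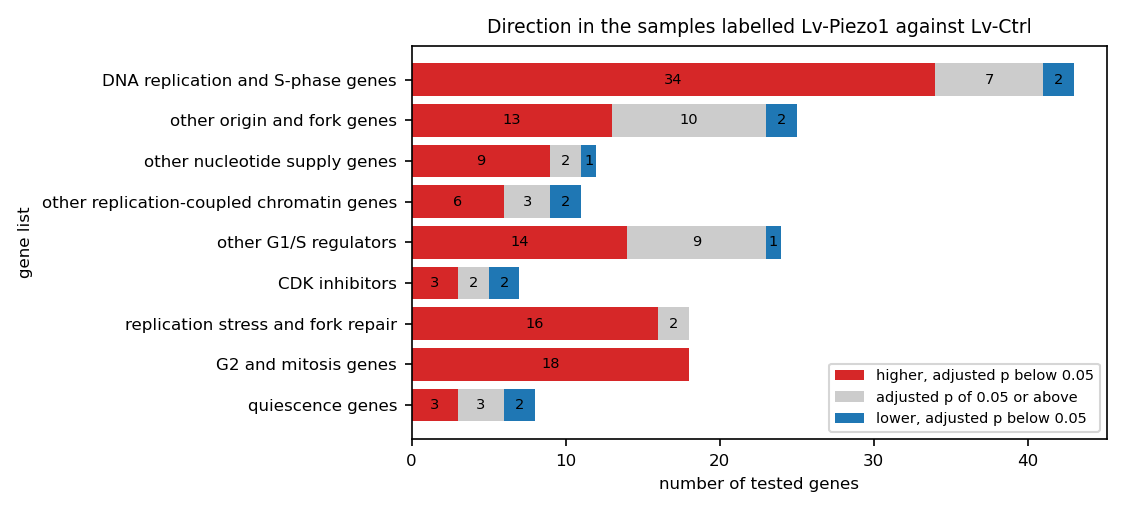
Number of tested genes (x axis) in each list that were higher (red), not past the threshold (grey) or lower (blue) at an adjusted p below 0.05 in the samples labelled Lv-Piezo1 against Lv-Ctrl. The 43 tested members show 34 higher and 2 lower, all 18 tested G2 and mitosis genes are higher, and the CDK inhibitors and quiescence genes hold genes of both directions.

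Among 25 tested other origin and fork genes, 13 were higher, not far above the share of all tested genes. In this list 2 genes were lower, none was called and the median log2 fold change was 0.36. The largest changes were those of the checkpoint adaptor Clspn (0.97), of Dbf4, the activator of the Cdc7 kinase (0.83), of Topbp1 (0.82) and of Chtf18 (0.75). Clspn, like Recql4, Samhd1, Rmi2 and Mms22l, averaged below 1 TPM under the label Lv-Ctrl and passed the limit for testing only through the other group, and all of these are counted as higher in their lists. Of 12 other nucleotide supply genes, 9 were higher and 1 lower, with a median log2 fold change of 0.42. Shmt1, which feeds one-carbon units into thymidylate synthesis, went from 1.62 to 9.86 TPM, a log2 fold change of 2.06, and the deaminase Dctd from 4.87 to 14.4 TPM, a log2 fold change of 1.41, both called. Samhd1, which breaks deoxynucleotides down, went from 0.888 to 2.66 TPM (0.97), and Mthfd1 had a log2 fold change of 0.57. Of 11 other replication-coupled chromatin genes, 6 were higher and 2 lower, beside 41.9% and 16.3% of all tested genes. Their median log2 fold change of 0.17 was close to the 0.14 of all tested genes. The paralogous histone chaperones moved in opposite directions, Asf1b at 0.90 and Asf1a at -0.43, beside Dnmt1 at 0.53 and Hells at 0.42.

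Of 24 tested other G1/S regulators, 14 were higher and 1 lower, with a median log2 fold change of 0.37. Mybl2 (0.94), Ccna2 (0.93) and Myc (0.74) led the higher genes, and E2f5, a repressor-type E2F, was lower at -0.64. The CDK inhibitors, which hold cells before S phase, were mixed, with 3 higher and 2 lower of 7. Cdkn1a went from a mean of 117 to 217 TPM, a log2 fold change of 0.89, Cdkn1c from 4.79 to 9.24 TPM (0.82) and Cdkn2d from 15.3 to 20.9 TPM (0.43), while Cdkn2a went from 128 to 74.3 TPM, a log2 fold change of -0.78. Of 8 tested quiescence genes, 3 were higher and 2 lower, with Txnip at 0.95, Klf2 at 0.75, Foxo1 at -0.54 and Btg1 at -0.25. For the CDK inhibitors and the quiescence genes the share that was higher was near the 41.9% of all tested genes.

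The promoters of the members were read for sequence features they share. RefSeq GRCr8 promoter windows, from 250 bases before to 50 bases after the start of the gene, matched 38 of the 46 members with 40 windows. Each was searched on both strands for the octamers TTTCCCGC, TTTCGCGC, TTTGCCGC and TTTGGCGC, which can overlap each other, and for CCAAT. At least 1 octamer was found in 17 of the 40 windows (42.5%), beside 4.14% of the 9996 windows of tested genes and 2.14% of all 33469 windows, and CCAAT in 65.0%, beside 37.5% of both. These matches are letters in a window and describe no binding. Over all tested genes with a window, the 392 with an octamer had a median log2 fold change of 0.20, or 0.19 over 375 with the members left out, beside 0.15 over the 8528 without.

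Several of these octamers lay close to the start. The stretches below, printed 5′ to 3′ on the strand of the gene with the octamers in capitals, show MCM subunits, Gins1, Cdt1 and Pole, all higher in the samples labelled Lv-Piezo1. They lie in GRCr8 at chr4:122918082-122918123 (minus strand) for Mcm2, chr9:30733717-30733767 (minus strand) for Mcm3, chr19:13488585-13488626 and chr19:13488790-13488827 (plus strand) for Mcm5, chr13:42404465-42404506 (minus strand) for Mcm6, chr12:22163208-22163245 (minus strand) for the proximal place in Mcm7, chr3:160184880-160184921 (plus strand) for Gins1, chr19:67529241-67529278 (plus strand) for Cdt1 and chr12:52053642-52053679 (minus strand) for Pole.
Mcm2: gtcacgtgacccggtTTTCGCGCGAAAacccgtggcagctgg
Mcm3: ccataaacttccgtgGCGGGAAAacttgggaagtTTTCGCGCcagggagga
Mcm5, distal: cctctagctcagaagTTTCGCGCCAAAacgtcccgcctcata
Mcm5, proximal: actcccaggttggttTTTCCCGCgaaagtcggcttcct
Mcm6: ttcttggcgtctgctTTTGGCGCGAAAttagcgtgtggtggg
Mcm7, proximal: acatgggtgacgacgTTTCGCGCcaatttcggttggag
Gins1: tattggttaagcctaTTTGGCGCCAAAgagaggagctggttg
Cdt1: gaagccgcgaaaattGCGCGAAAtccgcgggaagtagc
Pole: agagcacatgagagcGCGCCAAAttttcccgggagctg

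In Mcm2, Mcm6, Gins1 and the distal stretch of Mcm5, 2 octamers on opposite strands overlap to form 1 longer run. In Mcm2 that run ends 3 bases before the start, and in Gins1 it ends 14 bases before it. An octamer was also found in members that did not pass the threshold, Gins3 and Pola1, and none was found in the windows of the called genes Chaf1b and Ccne1, so its presence and the calls did not coincide.

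Fam111a, which moved farthest and in the other direction, had no octamer in its window. The 250 bases before its start, at chr1:219065389-219065638 on the plus strand of GRCr8, hold CCAAT at 2 places, shown in capitals.
Fam111a: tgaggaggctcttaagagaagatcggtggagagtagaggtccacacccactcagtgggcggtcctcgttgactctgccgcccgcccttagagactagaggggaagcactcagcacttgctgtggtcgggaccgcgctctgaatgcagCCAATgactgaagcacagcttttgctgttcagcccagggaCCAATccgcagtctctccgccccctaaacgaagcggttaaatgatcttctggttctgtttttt

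Other features of the samples moved with the groups, and so with the members. The smooth muscle and pericyte list summed to 665, 654, 660 and 651 TPM in the samples labelled Lv-Ctrl but to 4506, 4584, 4572 and 4406 TPM in those labelled Lv-Piezo1. Of its 8 genes 7 were tested, 5 were called higher and Kcnj8 was called lower, with Tagln the most abundant, and Rgs5, a pericyte marker, stayed at or below 0.35 TPM in every sample. Among the fibroblast markers, Dcn (-1.49) and Pdgfra (-1.36) were called lower and Fn1 (1.35) higher. The matrix gene Mgp took 3.03% to 3.22% of all TPM under the label Lv-Ctrl and 5.25% to 5.70% under Lv-Piezo1, and mitochondrially encoded protein genes took 6.87% to 7.74% and 5.69% to 6.16%. The number of genes and loci above 0 per sample ran from 16645 to 17022 with the label Lv-Ctrl and from 17191 to 17657 with the label Lv-Piezo1. The part of these differences in the levels of the replication genes was not tested.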

How the data were processed

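The authors filtered the reads, mapped them to the rat genome with HISAT2, assembled transcripts with StringTie and deposited TPM rounded to 2 decimals. The study's methods name FPKM and the labels' processing notes name the mouse build mm10, while most rows carry rat Ensembl identifiers and 1139 are loci assembled by StringTie. How the TPM values were made is not given in the sources used here. TPM keeps no depth, so the depth is unknown.

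From the deposited TPM, log2(TPM + 1) was fitted with limma 3.58.1 in R 4.3.3 (trended moderation, no block, Benjamini-Hochberg over 13103 genes with a mean of at least 1 TPM). Calls needed an adjusted p below 0.05 together with a log2 fold change of 1 or more in either direction. The fit was tested on simulated data. Where a symbol had several rows, the row with the higher mean was used. The members and lists were chosen with earlier results of these data known. Sample values are given for called members and, in each role, for the most abundant member and those with the largest and smallest log2 fold change. Up to 4 genes with the largest absolute change are named from each other list. Alternatives were another pseudocount, other filters, scalings and moderation, mitochondrial genes left out, a replicate block, no fold change limit and each sample left out. Promoters and gene order are those of RefSeq GRCr8, in which all 46 symbols matched a gene.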

Additional observations from a re-analysis of the deposited data

Results flagged for a closer look

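Of 94 groups of 4 samples, 2 for each of 47 genes, 3 held a sample that stood far from the other 3 of its group, and chance gives about 1 in 20 groups. Mcm5 measured 10.3 TPM in Lv-Piezo1 replicate 1, where the nearest of the other Lv-Piezo1 samples had 8.79 TPM. Cdc6 measured 1.83 TPM in the same replicate, with the nearest at 1.71 TPM. Ccne1 measured 14.5 TPM in Lv-Piezo1 replicate 2, with the nearest at 13.3 TPM. In each case the other Lv-Piezo1 samples also lay above all Lv-Ctrl samples.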

How the results depend on the processing

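The count of all genes called was 1005 on the deposited values, 1438 with a pseudocount of 0.1, 628 with a mean of at least 5 TPM, where fewer genes were tested, and 7626 with no fold change limit. The 7 members called became 12 with a pseudocount of 0.1, 4 with a mean of at least 5 TPM, where 29 members were tested, 3 under quantile normalization (Cdt1, Mcm5 and Fam111a) and 36 with no fold change limit. The members' median log2 fold change, 0.53, was 0.62 with a pseudocount of 0.1, 0.38 under median-ratio scaling and 0.37 under quantile normalization, scalings that also lower the median of all genes. The cause of the other shifts was not tested. Leaving out single samples gave 1006 to 1030 genes called, 6 to 8 members called, 36 to 37 members with an adjusted p below 0.05 and a members' median of 0.51 to 0.55.

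For single genes (43 members and Piezo1), 671 of 690 values under the alternatives kept their direction and side of the threshold, 7 lost it, 6 passed it and 6 changed sign. The sign changes were all in genes not past the threshold. They were Orc6 (-0.036), Pola1 (-0.089), Prim2 (-0.038) and Ccne2 (-0.054) under quantile normalization, Prim2 (-0.0020) after median-ratio scaling and Fen1 (0.0011) without Lv-Piezo1 replicate 4, in a range of -0.11 to 0.0011 over samples left out.

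Samples with the same replicate number had correlations of their deviations from the group means of -0.06 to -0.01. Samples with different numbers were not compared in this way. The study describes 4 biological repeats that received the one or the other virus, so whether the groups share isolations cannot be told from these values. With the replicate number as a block, 1004 genes and 7 members were called, 36 members had an adjusted p below 0.05 and the members' median stayed at 0.53. Depth is unknown, so counting error cannot be set beside the low levels of Orc1, Mcm10, Pole and Chaf1b.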
